A study of Mus musculus with 4 samples.

Results

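Bacterial ligand transport and sensing in the intestinal crypt was followed through 8 genes. They are the peptide carriers Slc15a2, Slc15a3 and Slc15a4, the cell wall sensors Nod1 and Nod2 with their kinase Ripk2, and the sugar sensor Alpk1 with its adaptor Tifa. The rule takes every row whose symbol is one of these names, and it found all 8 among the 24182 genes listed in both deposited tables. The rule names no threshold, but the list was drawn up with results known and its members were chosen by the fasting changes deposited for these same libraries, so the changes and calls of the 8 genes are a description and support nothing by themselves.

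The study asked how giving tetracycline, to deplete what the labels call AKK, alters the response of crypts to fasting. RNA came from small-intestinal crypts of male C57BL/6J mice aged 9 weeks, labelled as small intestinal epithelial cells. The 4 groups were mice fed without tetracycline, mice fasted for 24 hours without it, mice fed after 21 days of tetracycline, and mice fasted for 24 hours after 21 days of tetracycline. Crypts were shaken off in HBSS with EDTA and dissociated with trypsin, and no sort for epithelial cells is named, so other cells of the gut wall can be present. The labels list 1 sample in each group, whereas the deposited values show 4 libraries in each table, 2 fasted and 2 fed. Which labelled sample each library belongs to is unknown. Whether the libraries come from separate mice is not given in the sources used here. The p-values thus rest on variation between libraries, which may be technical. Within each side, library 1 names the deeper of the pair, judged by its size factor. The tables hold the authors' fasting comparisons. No column states their direction, and a positive value is taken to mean higher in fasted crypts because the table names put fasting first.

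Bacterial cell walls release small peptides that carry parts of peptidoglycan. Carriers of the SLC15 family move such peptides across membranes, SLC15A2 at the cell surface and SLC15A3 and SLC15A4 in endosomes and lysosomes. In the cytosol, NOD1 recognises peptides with diaminopimelic acid and NOD2 recognises muramyl dipeptide, and both signal through the kinase RIPK2 to NF-kB. A separate route detects ADP-heptose, a sugar intermediate of lipopolysaccharide synthesis. ALPK1 is the kinase that binds it, and it phosphorylates TIFA, which then assembles and recruits TRAF6, also towards NF-kB. In the gut these routes report on bacteria close to the epithelium.

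Epithelial identity was clear at the RNA level: the epithelial marker Epcam was listed in the authors' deposited tables at a mean of 83703 normalized counts without the drug and 68782 with it, and all 6 markers of that list were present. The means of each table summed to about 65863300 and 65327200 normalized counts per average library, and the largest size factor was 1.17 and 1.75 times the smallest. Markers of other cells were also read. The summed normalized count of 5 B lymphocyte and plasma cell genes ranged from 513 to 4926 over the libraries without and from 128 to 6264 over those with tetracycline, and that of 7 macrophage and dendritic cell genes from 1430 to 3396 and from 806 to 6372. The lowest sums lay on the fasted and the highest on the fed side in each table. Other lists were higher in fasted crypts. Of 5 Paneth cell genes all had positive changes in both tables, and 3 were called without tetracycline per the authors' deposited table, Mmp7 (2.07), Defa24 (1.15) and Itln1 (1.05). With tetracycline 0 were called, but the changes were of like size at 1.93, 1.27 and 1.12 in the authors' deposited table, with larger standard errors (0.65 against 0.26 for Mmp7). All 4 tuft cell genes had positive changes in both tables and 0 were called (adjusted p of the authors).

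Without tetracycline, 3 of the 8 genes were called higher in fasted crypts and none lower in the authors' deposited table, at an adjusted p under 0.05. Of all 18100 genes with an adjusted p, 2.27% were called, 1.06% higher and 1.22% lower. The 3 genes were Slc15a2, Alpk1 and Tifa. With tetracycline the DESeq2 test of the authors called 0 of the 8, against 0.6% of 17993 genes, made up of 0.333% higher and 0.267% lower. At an unadjusted p under 0.05 there were 4 of the 8 without the drug, Slc15a3 being the other one, against 10.8% of all genes, and 0 of the 8 with it, against 5.34%. The median change of the 8 genes was 0.32 without and -0.42 with tetracycline on the log2 scale, beside 0.01 and -0.02 over all tested genes. Both fasted libraries lay outside the range of both fed ones for 7 genes without and 3 with tetracycline. Among genes with a mean of 50 to 500 normalized counts that share was 49.7% and 33.6%, so such a gap alone was common. The fasted pair was above for 5 genes and below for 2 without tetracycline, beside 25.5% and 24.2% of those genes. With it the fasted pair was above for 1 and below for 2, beside 17.1% and 16.5%. The means of Tifa and Slc15a4 lie outside that range of 50 to 500 in both tables.

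**Figure D1:**
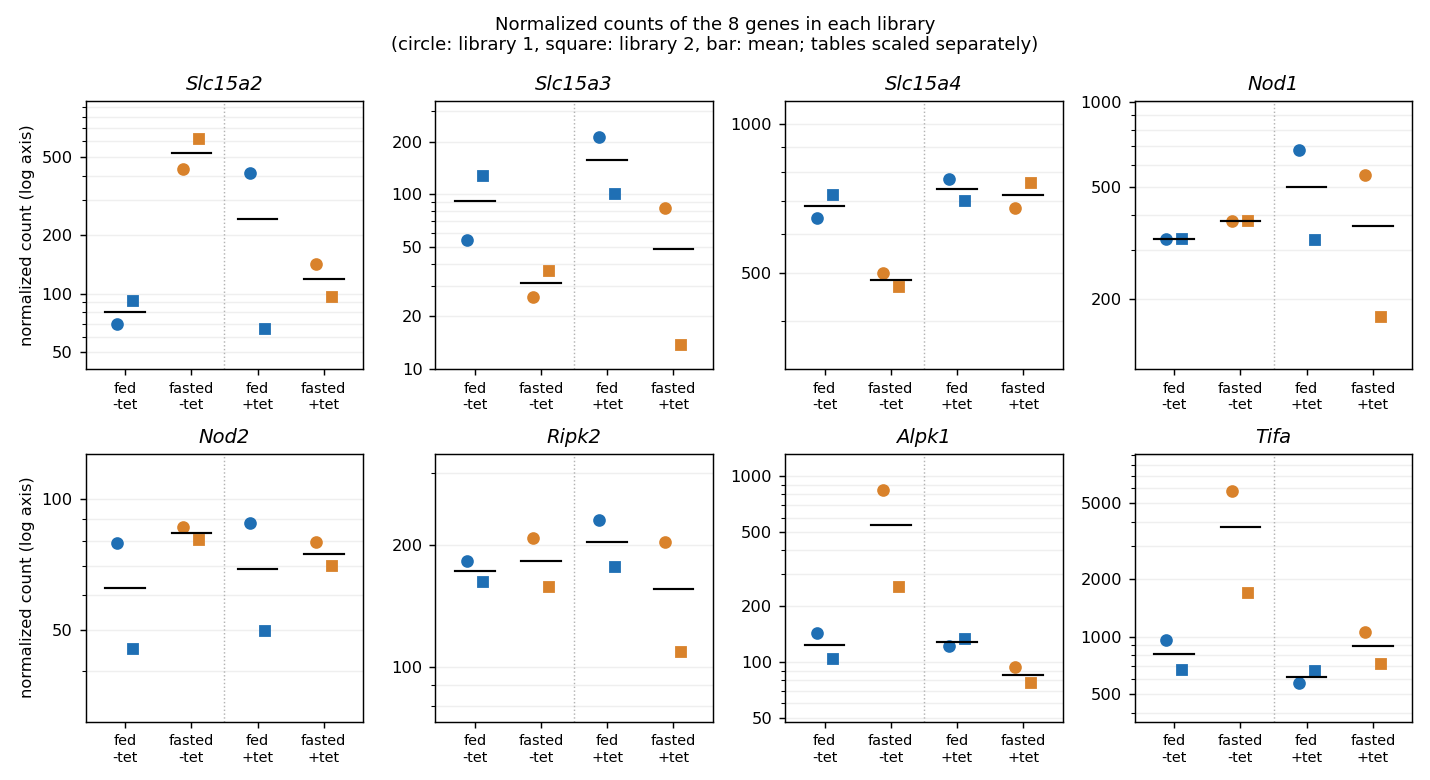
Normalized counts of each of the 8 genes on a log axis, with fed libraries in blue and fasted libraries in orange, without (-tet) and with (+tet) tetracycline. The circle is library 1, the square library 2 and the bar their mean. Slc15a2 stood at 433 and 617 in the fasted libraries without tetracycline, and Alpk1 and Tifa were highest in fasted library 1 of that table.

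Among the carriers, Slc15a2, which takes up di- and tripeptides with protons at the cell surface, showed the largest change. Without tetracycline the fasted libraries read 433 and 617 normalized counts, the fed ones 69.5 and 91.4. Both fasted libraries were far above both fed ones, and the lowest fasted value was 4.74 times the highest fed value. The change was 2.71 (SE 0.36, adjusted p 1.18e-10) per the authors' deposited table, or 6.53-fold. Leaving out any 1 library kept the log2 ratio of the means between 2.43 and 2.94.

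With tetracycline the fasted libraries read 142 and 96.3 normalized counts of Slc15a2, the fed ones 413 and 65.8. The fed libraries lay on either side of the fasted ones. The change was -1.01 (SE 0.82, adjusted p 0.9999 per the authors' deposited table), and it rested on fed library 1: without that library the log2 ratio was 0.85. Fed library 1 also held the highest sums of lymphocyte and macrophage genes in its table, 6264 for the B lymphocyte and plasma cell list and 6372 for the macrophage and dendritic cell list, and their part in the Slc15a2 value was not tested.

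Slc15a3, a lysosomal carrier of histidine and small peptides found mainly in myeloid cells, was lower in fasted crypts in both tables and was called in neither. Without tetracycline the fasted libraries read 25.7 and 36.6 normalized counts, the fed ones 54.6 and 128. With it the fasted libraries read 83.1 and 13.8, the fed ones 214 and 100.3. The groups did not overlap in either table, but the libraries within a side differed by up to 6.04-fold. The authors' deposited tables gave changes of -1.55 (SE 0.61, adjusted p 0.209) and -1.68 (SE 0.86, adjusted p 0.941). Leaving out fed library 2 moved the first to -0.81, and leaving out fasted library 1 moved the second to -3.51. Reads of Slc15a3 are also open to a second gene, since 28.1% of its merged exon bases are shared with Tmem132a on the opposite strand and the library kit does not keep the strand.

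The Slc15a3 values ran beside those of the macrophage and dendritic cell list (Csf1r, Adgre1, Cd68, Itgam, Itgax, Mpeg1 and C1qa). All 7 of these genes were lower in fasted crypts in both tables, with median log2 changes of -0.61 and -1.34 (drug absent, then present), and 0 of 7 were called in either (adjusted p of the authors). Without tetracycline their sum read 1430 and 2172 normalized counts in the fasted pair, against 2363 and 3396 in the fed pair. With it the fasted pair read 3178 and 806, the fed pair 6372 and 3410. Without tetracycline Slc15a3 amounted to 1.80% and 1.68% of that sum in the fasted libraries, and to 2.31% and 3.76% in the fed ones. With it the fasted libraries gave 2.62% and 1.71%, the fed ones 3.36% and 2.94%. The share was thus lower in both fasted than in both fed libraries of each table. Slc15a3 itself ranged from 13.8 to 214. In bulk RNA, fewer cells of a type and less RNA per cell cannot be told apart, and the part of these cells in the Slc15a3 change was not tested.

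**Figure D2:**
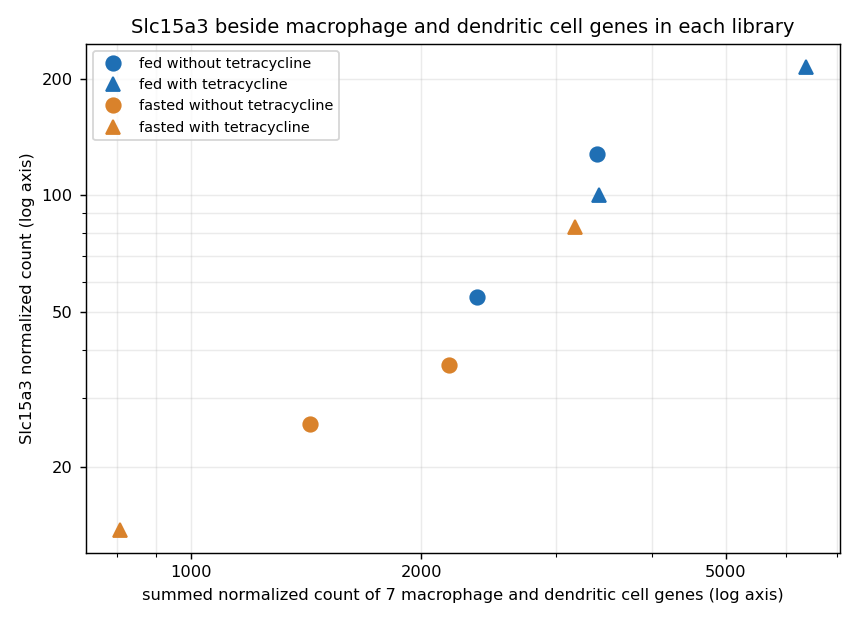
Normalized count of Slc15a3 (vertical, log axis) against the summed normalized count of 7 macrophage and dendritic cell genes (horizontal, log axis) in the 8 libraries. Blue is fed and orange is fasted, circles are without and triangles with tetracycline. The library with the lowest sum, 806, had 13.8 counts of Slc15a3, and the one with the highest, 6372, had 214.

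Slc15a4, the other lysosomal carrier, was the most even of the family. Without tetracycline the fasted libraries read 499.9 and 469 normalized counts, the fed ones 647 and 718, so the fasted libraries were lower with no overlap. With it the fasted libraries read 677 and 759, the fed ones 776 and 699, which overlapped. The changes were -0.49 (SE 0.28, adjusted p 0.561) and -0.04 (SE 0.38, adjusted p 0.9999) per the authors' deposited tables, and neither was called. The 95% interval of the first reached from -1.05 to 0.06 on the log2 scale. Summed over the 3 carriers, the fasted pair without tetracycline read 959 and 1123 normalized counts and the fed pair 771 and 937, a far narrower gap than that of Slc15a2 alone. Since reads of 1 library share 1 scale, the ratio of Slc15a2 to Slc15a4 counts is free of the scaling: without tetracycline the fasted libraries gave 0.87 and 1.32, the fed ones 0.11 and 0.13. With it the fasted libraries gave 0.21 and 0.13, the fed ones 0.53 and 0.09.

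The cytosolic sensors of cell wall peptides and their kinase had log2 changes between -0.46 and 0.42, and none was called in the authors' deposited tables. Nod1, the sensor of diaminopimelic acid peptides, stood at 378 and 379.6 normalized counts in the fasted libraries without tetracycline, the fed ones at 328 and 327. The libraries of a side were nearly equal and the sides did not overlap. The change was 0.21 (SE 0.30, adjusted p 0.915 per the authors' deposited table). The deposited standard error gives a 95% interval of -0.38 to 0.80. With tetracycline the fasted libraries read 554 and 173, the fed ones 676 and 324, a wide overlap. The change there was -0.46 (SE 0.67, adjusted p 0.9999 per the authors' deposited table), and -1.53 without fasted library 1.

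Nod2, the sensor of muramyl dipeptide, was read at low levels. Without tetracycline the fasted libraries read 86.2 and 80.7 normalized counts, the fed ones 79.4 and 45.2. With it the fasted libraries read 79.8 and 70.2, the fed ones 88.2 and 49.6. In both tables fed library 2 was the lowest. The changes were 0.42 (SE 0.51, adjusted p 0.887) and 0.12 (SE 0.61, adjusted p 0.9999) per the authors' deposited tables, with 95% intervals of -0.58 to 1.43 and -1.08 to 1.32. Both intervals include a rise of 1 log2 unit, so such a rise is not excluded.

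Ripk2, the kinase that both NOD proteins recruit, stood at 208 and 157 normalized counts in the fasted libraries without tetracycline, the fed ones at 183 and 162. With tetracycline the fasted libraries read 203 and 109, the fed ones 231 and 176. The sides overlapped in both tables, and the changes were 0.09 (SE 0.37, adjusted p 0.982) and -0.38 (SE 0.54, adjusted p 0.9999) per the authors' deposited tables. With tetracycline, library 1 was above library 2 on each side for Nod1, Nod2 and Ripk2. The summed normalized counts of these 3 genes were 837 and 352 for the fasted pair of that table and 995 and 549 for the fed pair. Without tetracycline the fasted pair gave 672 and 617, the fed pair 590 and 533. The macrophage and lymphocyte sums given above were also higher in library 1 of each side with tetracycline, and their part was not tested.

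Alpk1 and Tifa, the sensor kinase for ADP-heptose and its substrate, rose together without tetracycline. For Alpk1 the fasted libraries read 839 and 253 normalized counts, the fed ones 143 and 103. For Tifa the fasted libraries read 5807 and 1693, the fed ones 962 and 666. For each gene both fasted libraries were above both fed ones, and fasted library 1 was above fasted library 2, by 3.32-fold for Alpk1 and 3.43-fold for Tifa. The authors' deposited table gave Alpk1 a change of 2.15 (SE 0.50, adjusted p 0.0019) and Tifa one of 2.20 (SE 0.47, adjusted p 0.000335), or 4.43-fold and 4.61-fold.

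The size of both rises depended on fasted library 1. Without that library the log2 ratios of the means were 1.04 for Alpk1 and 1.06 for Tifa, and without fasted library 2 they were 2.77 and 2.84. The lower fasted library still stood 1.77 times above the higher fed library for Alpk1 and 1.76 times for Tifa. Over the genes with means of 50 to 500, the log2 ratio of fasted library 1 to fasted library 2 had a median of -0.21 and an SD of 0.74, and Alpk1, with a mean of 335, lay well above it. Tifa, with a mean of 2282, is outside that range of means.

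Markers of other epithelial cells and of gut position were read beside these genes. The summed tuft cell genes read 8285 and 6614 normalized counts in the fasted libraries without tetracycline, the fed ones 4411 and 4227. Fasted library 1 was the highest of these, by a narrower margin over fasted library 2 than for Alpk1 and Tifa. With tetracycline the fasted libraries read 5863 and 4789, the fed ones 3370 and 4705. Without tetracycline the Paneth cell genes given above were also higher in fasted crypts, with a median change of 1.05. The 3 markers of the distal small intestine did not move as one: Fabp6, the ileal bile acid binding protein, fell by 5.13 on the log2 scale (SE 0.34, adjusted p 1.46e-48), Slc10a2, the ileal bile acid carrier, had -0.96 (SE 1.35, adjusted p 0.913) and Guca2a had 0.00 (SE 0.36) per the authors' deposited table. Slc10a2 read 2201 normalized counts in fasted library 1 and 514 in fasted library 2, with 4455 and 832 in the fed libraries. Of 3 proximal markers, Fabp1, which is also on the enterocyte list, rose by 1.08 (SE 0.27, adjusted p 0.00656), while Gata4 had 0.01 and Cyp2b10 had -0.87 (adjusted p 0.253) per the authors' deposited table. The other 3 enterocyte genes and the 4 stem cell genes were not called, Lgr5 having 1.06 (SE 0.34, adjusted p 0.0711) per the authors' deposited table. The part of these cells or of gut position in the Alpk1, Tifa and Slc15a2 values was not tested.

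With tetracycline the genes lay on opposite sides of 0. The fasted libraries read 93.8 and 77.0 normalized counts of Alpk1, the fed ones 123 and 133, with both fasted libraries below both fed ones. For Tifa the fasted libraries read 1057 and 719.6, the fed ones 574 and 659, with both fasted libraries above. Neither was called: the changes were -0.58 (SE 0.50, adjusted p 0.9999) and 0.53 (SE 0.42, adjusted p 0.9999) per the authors' deposited tables. The ratio of Tifa to Alpk1 counts within a library, which no scaling can alter, came to 6.92 and 6.70 in the fasted libraries without tetracycline, the fed ones giving 6.73 and 6.44. With tetracycline the fasted libraries gave 11.3 and 9.34, the fed ones 4.67 and 4.97. The ratio was thus nearly constant without the drug while Alpk1 ranged from 103 to 839 normalized counts, whereas with it the fasted libraries lay above and the fed ones below all 4 of the other table.

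The 2 genes are neighbours. In GENCODE M21, on the mouse build GRCm38 that is also called mm10, Alpk1 lies on chromosome 3 from 127670310 to 127780527 on the minus strand and Tifa from 127789805 to 127832164 on the plus strand. They run away from each other with 9.28 kb between them and share no exon, so reads of one are not open to the other. Slc15a2 lies on chromosome 16 from 36750177 to 36784962 on the minus strand. The 250 bases before the RefSeq start of each (build GRCm38.p6) are shown because these 3 genes carried the calls. Each is printed 5′ to 3′ on the gene's own strand, and capitals mark CG dinucleotides. They come from chr3:127780528-127780777 (minus strand) for Alpk1, chr3:127789622-127789871 (plus strand) for the first of the 2 starts of Tifa, and chr16:36784963-36785212 (minus strand) for Slc15a2.
Alpk1: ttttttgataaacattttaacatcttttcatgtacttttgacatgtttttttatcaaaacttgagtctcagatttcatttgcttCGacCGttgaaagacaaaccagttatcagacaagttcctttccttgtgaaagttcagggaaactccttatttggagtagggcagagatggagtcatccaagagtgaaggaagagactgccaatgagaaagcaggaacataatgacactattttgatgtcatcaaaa
Tifa: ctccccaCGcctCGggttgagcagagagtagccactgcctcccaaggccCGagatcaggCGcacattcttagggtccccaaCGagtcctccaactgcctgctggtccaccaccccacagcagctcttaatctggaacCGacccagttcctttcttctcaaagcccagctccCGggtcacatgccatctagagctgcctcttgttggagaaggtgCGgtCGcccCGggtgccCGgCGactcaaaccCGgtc
Slc15a2: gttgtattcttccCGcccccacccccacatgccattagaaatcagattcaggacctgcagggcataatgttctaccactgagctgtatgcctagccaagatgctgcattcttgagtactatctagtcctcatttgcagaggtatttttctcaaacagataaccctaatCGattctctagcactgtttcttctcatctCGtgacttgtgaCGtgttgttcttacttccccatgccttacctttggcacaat

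The neighbouring starts differ in composition. The Alpk1 stretch is 35.6% G and C with 2 CG dinucleotides, that of Tifa 62.0% with 13, and that of Slc15a2 45.2% with 4, beside medians of 52.4% and 6 over 32851 RefSeq promoters. RefSeq promoters were found for 6 of the 8 genes, 8 windows in all, each from 250 bases before to 50 bases after a start. On both strands, none of the 8 windows held the interferon-stimulated response element by its core letters, the E-box CACGTG, the AP-1 site TGACTCA, or any of 3 exact forms of the NF-kB site. Of all windows 3.44%, 7.15%, 5.2% and 0.341% held them, in that order. The result says only that these letters are not in these windows, and other forms of the NF-kB site were not searched.

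Whether the fasting change itself differed between the tables was tested gene by gene, as the change with minus the change without tetracycline divided by the combined standard error of both (Wald test, Benjamini-Hochberg over 17571 genes). The test called 4 genes, 0.0228%, and 0 of the 8. At an unadjusted p under 0.05 there were 3 of the 8 (Slc15a2, Alpk1 and Tifa), against 1.05% of all genes, and all 3 were lower with tetracycline, as were 0.603% of all genes. The difference for Slc15a2 was -3.72 (SE 0.90, adjusted p 0.0966), the 6th smallest p of all. That for Alpk1 was -2.73 (SE 0.71, adjusted p 0.219), the 10th smallest, and that for Tifa -1.68 (SE 0.63, adjusted p 0.99997). All 3 differences are negative, that is, lower with tetracycline, but the list was chosen with these differences in view.

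The statistic of this test varied less than its standard errors imply, with a robust SD of 0.71 where 1 would be due. After division by that value 32 genes were called, 0.182% (0.0911% lower with tetracycline), among them Slc15a2 (adjusted p 1.77e-05) and Alpk1 (adjusted p 0.000136) but not Tifa (adjusted p 0.0809). Over the other sets of genes tested, the adjusted p reached 0.218 for Slc15a2 and 0.329 for Alpk1 (Wald test). Left out 1 at a time, the libraries gave differences of -4.50 to -1.85 for Slc15a2, -3.35 to -1.62 for Alpk1 and -2.31 to -0.53 for Tifa. The smallest value of Slc15a2 came without fed library 1 with tetracycline, and those of Alpk1 and Tifa without fasted library 1 of the table without it.

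For the other 5 genes the difference lay between -0.67 and 0.46, and each adjusted p was 0.99997 (Wald test). Slc15a3 had the nearest changes in the 2 tables, with a difference of -0.13 (SE 1.05) and a 95% interval of -2.20 to 1.93. That interval is wide, and it does not show that the changes were alike.

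**Figure D3:**
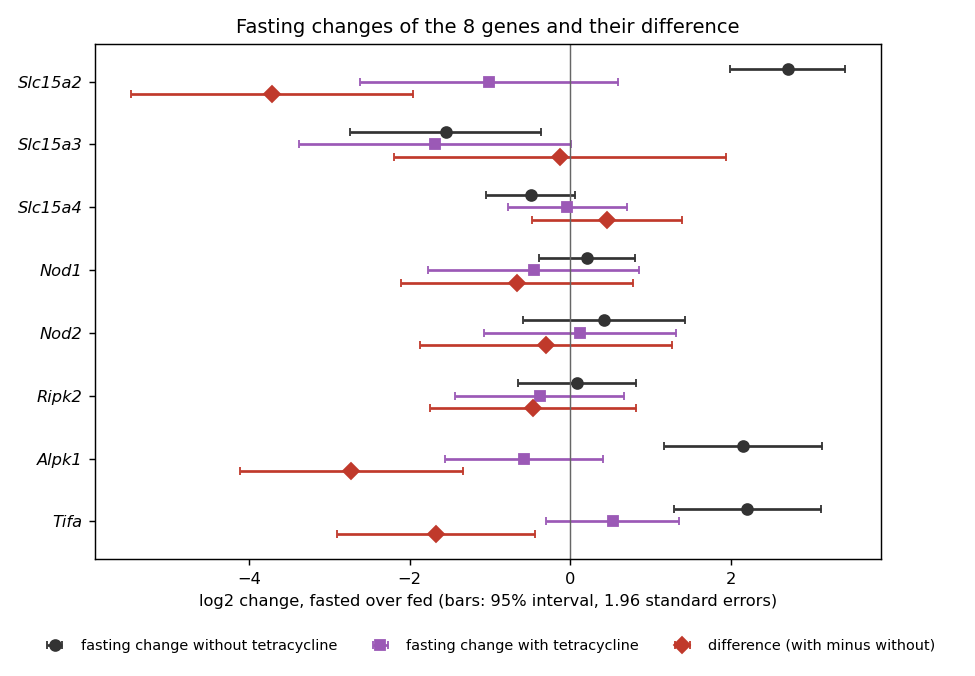
Log2 fasting change of the 8 genes without (black circles) and with (purple squares) tetracycline, and the difference of the 2 changes (red diamonds), with 95% intervals as bars. Slc15a2, Alpk1 and Tifa have intervals above 0 without tetracycline and across 0 with it.

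Setting levels with tetracycline beside levels without it crosses 2 tables with separate scaling, so the ratios were centred on the median of 21925 genes and not tested. In fasted crypts 3 of the 8 genes were lower by at least 1 log2 unit with tetracycline, beside 3.92% of all genes, and 0 were higher by as much, beside 3.13%. They were the 3 with a call. Their fasted levels without tetracycline enter the changes by which the list was chosen, so these ratios are a description only. Fasted Slc15a2 had a mean of 525 normalized counts without and 119 with tetracycline, a log2 ratio of -2.20. Fasted Alpk1 had 546 and 85.6, a ratio of -2.72. Fasted Tifa had 3750 and 889, a ratio of -2.14. In each case both libraries with tetracycline were below both without, as for Nod2 and for 6.83% of genes with means of 50 to 500. Slc15a4 alone of the 8 was above, beside 11.1% of those genes. The means of Tifa and Slc15a4 lie outside that range. Leaving out any 1 library kept the ratios between -2.50 and -1.92 for Slc15a2, -3.35 and -1.62 for Alpk1, and -2.77 and -0.99 for Tifa.

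In fed crypts 0 of the 8 were lower by as much, beside 3.4% of all genes, and Slc15a2 alone was higher, beside 8.38%. Fed Slc15a2 had a mean of 80.5 normalized counts without and 240 with tetracycline, a log2 ratio of 1.502 that became -0.35 without fed library 1. Fed Alpk1 had 123 and 128, a ratio of -0.01, and fed Tifa 814 and 616, a ratio of -0.46. Both fed libraries with tetracycline were below both without for Tifa alone, and above for 0 of the 8. Among genes with means of 50 to 500, a range that Tifa lies outside, the shares were 12.4% and 21.8%. Nod1, Nod2, Ripk2 and Slc15a4 had ratios within 0.55 of 0 in both feeding states with all libraries. With 1 library left out at a time, Nod1 ranged from -1.19 to 0.48 in fasted and from -0.08 to 0.98 in fed crypts, and Ripk2 from -0.81 to 0.09 in fasted crypts. The lowest Nod1 value in fasted crypts came without fasted library 1 with tetracycline. Nod2 stayed between -0.38 and 0.54 and Slc15a4 between -0.03 and 0.58 over both states. Slc15a3 had ratios of 0.72 in fed and 0.57 in fasted crypts with all libraries. Leaving out 1 library gave it ranges of 0.08 to 1.45 in fed and -1.19 to 1.32 in fasted crypts.

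Per kilobase of merged exon, which allows genes to be compared, Tifa was the most abundant of the 8 in every group, at 1172 normalized counts per kb in fasted and 254 in fed crypts without tetracycline and 278 and 193 with it. Slc15a4 was next in every group, at 91.2 and 129 per kb without and 135 and 139 with tetracycline. Nod1 and Ripk2 stood at 55.4 to 98.4 per kb. In fed crypts without tetracycline the other 4 genes lay close together at 10.9 to 17.9 per kb, with Alpk1 highest and Slc15a2 lowest. In fasted crypts without tetracycline Slc15a2 reached 71.3 and Alpk1 79.5 per kb, beside 74.6 for Nod1 and 64.9 for Ripk2, and the spread between the 2 Alpk1 libraries covers all of these neighbours. Nod2 stayed at 12.4 to 16.6 per kb in all 4 groups.

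The wider pathway was read from a list of 87 genes in 5 role groups, set up with earlier results of these data known. Of 78 tested without tetracycline, 1 was called higher and 3 lower in the authors' deposited table, beside 1.06% and 1.22% of all genes. The median change was 0.07 beside 0.01 over all tested genes. Of 79 tested with tetracycline the authors' DESeq2 test called 0, beside 0.6% of all genes, with a median of -0.22 beside -0.02. The difference test called 0 of 78, beside 0.0228%, with a median of -0.31 beside 0.00. With its statistic divided by the robust SD it called 1 of 78, Nlrp9b, beside 0.182%.

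The gene called higher was Casp4, the caspase that binds cytosolic lipopolysaccharide. Without tetracycline the fasted libraries read 2103 and 1071 normalized counts, the fed ones 614 and 744, a change of 1.22 (SE 0.36, adjusted p 0.0333) per the authors' deposited table. Like Alpk1 and Tifa it was highest in fasted library 1. With tetracycline the value for Casp4 was 0.75 (SE 0.40, adjusted p 0.983) per the authors' deposited table.

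The genes called lower were Tlr1, a receptor subunit for bacterial lipopeptides, Card9, an adaptor of myeloid cells, and Lyz2, the lysozyme of myeloid cells. For Tlr1 the fasted libraries read 59.6 and 71.0 normalized counts, the fed ones 283 and 210, a change of -1.92 (SE 0.40, adjusted p 0.000262) per the authors' deposited table. Card9 changed by -2.01 (SE 0.60, adjusted p 0.036) and Lyz2 by -1.47 (SE 0.42, adjusted p 0.025) in that table. With tetracycline none of the 3 was called, but the values were -1.80 (SE 0.69) for Tlr1, -1.53 (SE 0.75) for Card9 and -2.09 (SE 0.83) for Lyz2 per the authors' deposited table. Lyz2 is close in sequence to Lyz1, the Paneth cell lysozyme, which had a mean of 174543 against 924 for Lyz2, so its value is uncertain. Lyz1 itself, the most abundant of the carrier and handling group, had changes of 0.61 (SE 0.25, adjusted p 0.265) and 0.98 (SE 0.70) per the authors' deposited tables. The macrophage and B lymphocyte sums were also lower in fasted libraries of that table, with 0 of 7 and 5 of 5 genes called lower. All 6 stroma genes had negative changes there and 3 were called, Col3a1 (-4.24), Col1a2 (-2.93) and Col1a1 (-2.61), and all 5 T lymphocyte genes had negative changes with 0 called, per the authors' deposited table. The part of these cells in the 3 values was not tested.

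By role group, the counts stand beside 2.27% called over all genes without tetracycline, so 1 call in a group of this size is no result about it. Of the peptide carriers and handling genes, 0 of 7 were called higher and 1 lower without tetracycline, namely Lyz2. Of the NOD and ALPK1 adaptors and regulators 1 of 24 was called, Card9. Erbin, the most abundant of them, had values of 0.31 (SE 0.29) and -0.15 (SE 0.42) per the authors' deposited tables, and Tifab, a relative of Tifa, had -1.04 (SE 0.51, adjusted p 0.414) and -1.66 (SE 0.85, adjusted p 0.941). Of the Toll-like receptors and adaptors 1 of 21 was called, Tlr1, while Tollip, an inhibitor of these receptors, had values of -0.13 (SE 0.32) and -0.16 (SE 0.50) per the authors' deposited tables.

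Among 16 inflammasome genes, Casp4 alone was called. Nlrp6, the most abundant, had values of -0.09 (SE 0.25) and -0.12 (SE 0.37), and Nlrp9b had 0.47 (SE 0.48, adjusted p 0.846) and -1.44 (SE 0.47, adjusted p 0.199) per the authors' deposited tables. The difference for Nlrp9b was -1.91 (SE 0.67), with an adjusted p of 0.99997 from the Wald test and of 0.0417 after division by the robust SD. Without tetracycline its fasted libraries read 1038 and 308 normalized counts, the fed ones 552 and 423. Fasted library 2 lay below both fed ones, so the positive change in that table rested on fasted library 1. With tetracycline the fasted libraries read 206 and 266, the fed ones 788 and 489. Of 10 NF-kB subunits and targets 0 were called in either table. Nfkb1 had values of -0.10 (SE 0.25) and -0.28 (SE 0.36), and Rel had -0.20 (SE 0.30) and -1.08 (SE 0.45, adjusted p 0.649) per the authors' deposited tables. The carrier Slc15a1, which absorbs dietary peptides, had values of 0.67 (adjusted p 0.662) and 1.53 in those tables and was added by hand, after its values were seen, as the close relative of the 3 carriers.

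**Figure D4:**
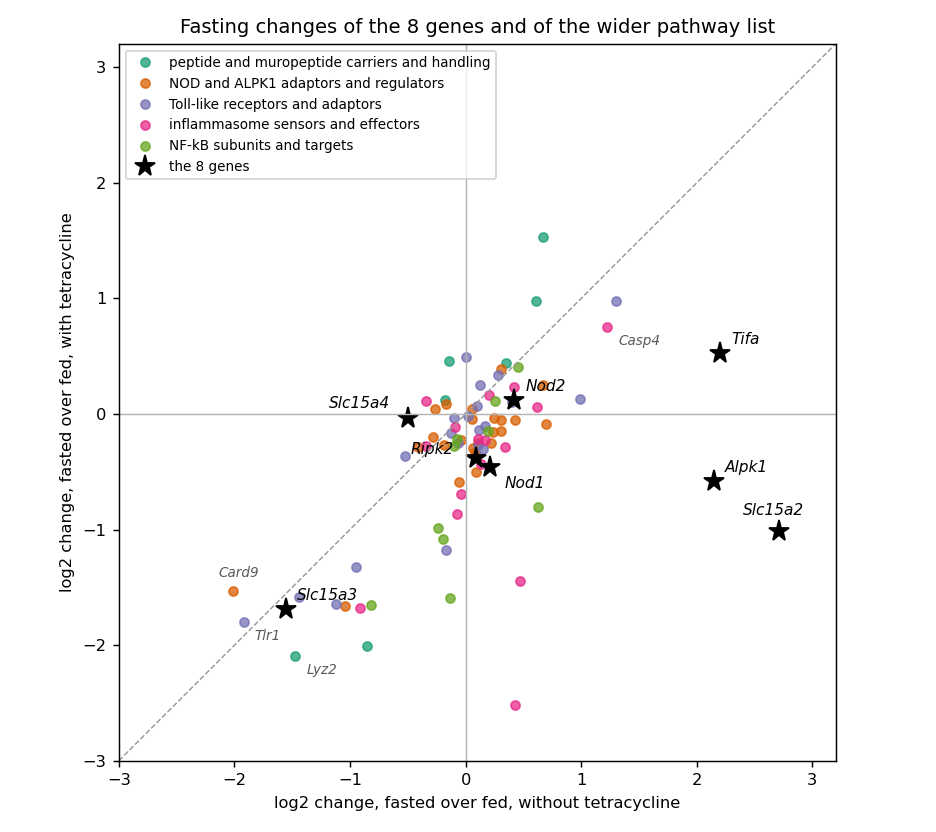
Log2 fasting change with tetracycline (vertical) against that without (horizontal) for the 8 genes (black stars) and the tested genes of the wider list, coloured by role group; the dashed line marks equal changes. Slc15a2, Alpk1 and Tifa lie at 2.71, 2.15 and 2.20 on the horizontal axis, to the right of all other genes shown, the next being at 1.30.

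Genes with a pattern over the 8 libraries most like that of the called genes were sought by Pearson's r of log2(normalized count + 1). Each table was centred on its own mean. The search covered 3595 genes with a mean of 50 or more in each table whose counts were decoded. Counts were decoded up to a mean of 500, or of 3000 for the 8 genes and the listed genes. Most of the 13194 genes with means of at least 50 in both tables were therefore not searched. For Tifa the most alike were Map1a (r = 0.96), Ptgs1 (0.95) and Ro60 (0.95). For Alpk1 they were Ro60 (0.94), Zfp619 (0.94) and Gm48415 (0.94). For Slc15a2 they were Gm44215 (0.98), Gm15502 (0.93) and Gm10040 (0.92). With 8 libraries on 2 scales such values are a description. Their changes without tetracycline in the authors' deposited table ran from 0.37 for Ro60 to 2.06 for Gm15502 (SE 0.55, adjusted p 0.012). Gm15502 was the one called among them, and Map1a had 1.34 (SE 0.41, adjusted p 0.0507), against 2.71 for Slc15a2 and 2.20 for Tifa. Between members, the 2 highest r were 0.91 for Nod1 with Ripk2 and 0.90 for Alpk1 with Tifa, over the same 8 libraries. Among other pairs, Nod1 with Nod2 had 0.40, Nod2 with Ripk2 0.34 and Slc15a3 with Nod1 0.71. The lowest was -0.77, for Slc15a4 with Tifa.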

How the data were processed

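RNA-seq of small-intestinal crypts was analysed from 2 tables of the authors' fasting comparisons, 1 without and 1 with tetracycline. The authors used Salmon, DESeq2 and mm10, per the submitters' processing notes; versions and the annotation release are not given in the sources used here. The authors' mean is a signal, counts divided by a size factor and averaged over the table's libraries. Changes and standard errors were deposited as log2 values, the deposited test statistic is a score (change over standard error), and the deposited p-values are Wald p with a Benjamini-Hochberg adjustment. There are 0 further columns of per-sample values.

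Each deposited mean is a sum of whole counts times 1 step per library. The steps were read from the lowest means, and rows read in 1 library alone gave each library's side. Whole counts were then solved for, and a set was kept when the negative binomial fit that gives the deposited standard error returned the deposited change within 0.002. This gave 1 set for 99.9% of 3955 genes without and 99.9% of 4022 with tetracycline (means 50 to 500), and for all 8 genes. No count model was run on them. Rebuilt group means came from mean and fold change. The difference test and the decoding were tested on simulated data.

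Of the deposited gene identifiers 99.3% matched GENCODE M21 without the version but 0.0509% with it, so the annotation used differs in release, and coordinates are those of M21 and RefSeq GRCm38.p6. Members, lists and tests were chosen with earlier results of these data known. Genes named are the 8, listed genes called in a table, and in each role group the most abundant and the most changed gene with a mean of at least 50. Alternatives covered the threshold, filters, pseudocounts of 1 and 10, centring and single libraries. The computations used Python 3.11.15, numpy 2.4.6, pandas 2.3.3 and scipy 1.17.1.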

Additional observations from a re-analysis of the deposited data

Results flagged for a closer look

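The fasting change of Alpk1 drew attention because the fasted and fed pairs stood in opposite order in the 2 tables, without overlap. Both fasted libraries were above both fed ones in the first table (839 and 253 against 143 and 103 normalized counts) and below both in the second (93.8 and 77.0 against 123 and 133). The second change was not called (-0.58, SE 0.50, adjusted p 0.9999 per the authors' deposited table, 95% interval -1.57 to 0.41), and fasted pairs below fed ones were found there in 16.5% of genes with means of 50 to 500. The difference of the changes was -2.73 (SE 0.71), and the Wald test over all genes gave an adjusted p of 0.219, so the difference did not pass the threshold. The range over the sets of genes and scalings tried was 0.000136 to 0.329.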

How the results depend on the processing

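The labels give 1 sample a group, so no p of these data can be tied to labelled replicates. At depths of 61.1 to 2282 mean normalized counts for the 8 genes, the deposited standard errors ran from 0.28 to 0.86 and also hold the spread between libraries. No paired analysis was possible because the labels give only 1 replicate number and the tables hold comparisons. The 3 calls without and 0 calls with tetracycline among the 8 genes were the same at an adjusted p under 0.01, with stricter or no filters on the mean and with centred changes. Over all genes an adjusted p under 0.01 left 246 of 411 and 68 of 108 calls. The pathway list had 1 call instead of 4 at that threshold. Dividing the difference statistic by its robust SD gave 2 calls among the 8 genes instead of 0, 1 in the pathway list instead of 0, and 32 over all genes instead of 4, against 1 when the means had to reach 50 in both tables.

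Leaving out 1 library at a time, the log2 ratio of means ranged from 1.04 to 2.77 for Alpk1, 1.06 to 2.84 for Tifa and -2.04 to -0.81 for Slc15a3 without tetracycline. With it the ranges were -1.80 to 0.85 for Slc15a2, -3.51 to -0.92 for Slc15a3 and -1.53 to 0.17 for Nod1. Of 64 such values 56 moved by less than the deposited standard error. The other 2 pseudocounts and the centring moved no member's change by more than that error. The alternatives that left out a library for the difference and the tetracycline levels were chosen after seeing the data.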
